A study of Rattus norvegicus with 14 samples.

Results

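The genes described here are 7 keratins of the epidermis: Krt14 and Krt15 of the basal layer, Krt1, Krt10 and Krt2 of the layers above it, and Krt16 and Krt17, which keratinocytes induce under stress and after wounding. They were taken by name, and each had exactly 1 probe set annotated with its symbol alone, so 7 of 7 were measured among the 14497 genes compared. The foreskins came from Sprague Dawley rat pups on postnatal day 5, and each sample pooled 2 foreskins of 1 litter. In the flutamide group, 7 dams had been given 5 mg/kg/day flutamide, an antiandrogen that blocks the androgen receptor, by oral gavage on gestational days 16 to 20. In the corn oil group, 7 dams had received the vehicle alone by the same route over the same days. Each litter was read on its own Affymetrix Gene 1.0 ST array, and levels are given as the authors' normalised log2 values, so that a difference of 1 is a doubling.

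Keratins are the intermediate filament proteins of epithelial cells. A filament is built from heterodimers of a type I keratin (here Krt10, Krt14, Krt15, Krt16 and Krt17) and a type II keratin (here Krt1 and Krt2). In epidermis, dividing basal cells make Krt14 with its partner Krt5, and as cells leave the basal layer they switch to Krt1 and Krt10. Krt2 is added late in the upper layers, Krt15 marks basal cells and the stem cells of the hair follicle bulge, and Krt16 and Krt17, normally found in hair follicles and other appendages, appear in interfollicular epidermis when it is wounded, inflamed or hyperproliferative. The foreskin carries both a haired outer skin and an inner epithelium, and its RNA here also comes from dermis, muscle and vessels. In such bulk samples, fewer keratinocytes and less keratin RNA per keratinocyte cannot be told apart.

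Some litters stood apart on other measures. Flutamide replicate 1 had a mean of 5.60 over 12 interferon-stimulated genes, against 4.42 to 4.70 in the other 13 samples. Corn oil replicate 1 had the highest SD of all array values, 1.76, and flutamide replicate 7 the lowest, 1.68. For the keratins and class contrasts that these litters move most, values without them are given beside the result. Over all genes, the limma test, with p-values adjusted by Benjamini-Hochberg, called 1 of 14497 genes (0.0069%), the spliceosome gene Snrpf, which fell in flutamide litters by 0.47 on the log2 scale (adjusted p = 0.0274). At an unadjusted p under 0.05 it gave 9.16% of genes.

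None of the 7 keratins passed the test between flutamide and corn oil litters (limma adjusted p from 0.506 to 0.999, background 0.0069% of genes called). At an unadjusted limma p under 0.05 there was 1 of 7, Krt16, beside a background of 9.16%. The median log2 difference over the 7 members was -0.03, against 0.005 over all genes tested, with 3 members above 0 and 4 below. For no member were the groups free of overlap, which held for 0.124% of all genes. For the 6 members other than Krt16, the 95% confidence intervals of the fold change all lay between 0.851 and 1.13, the bounds of Krt2.

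**Figure D1:**
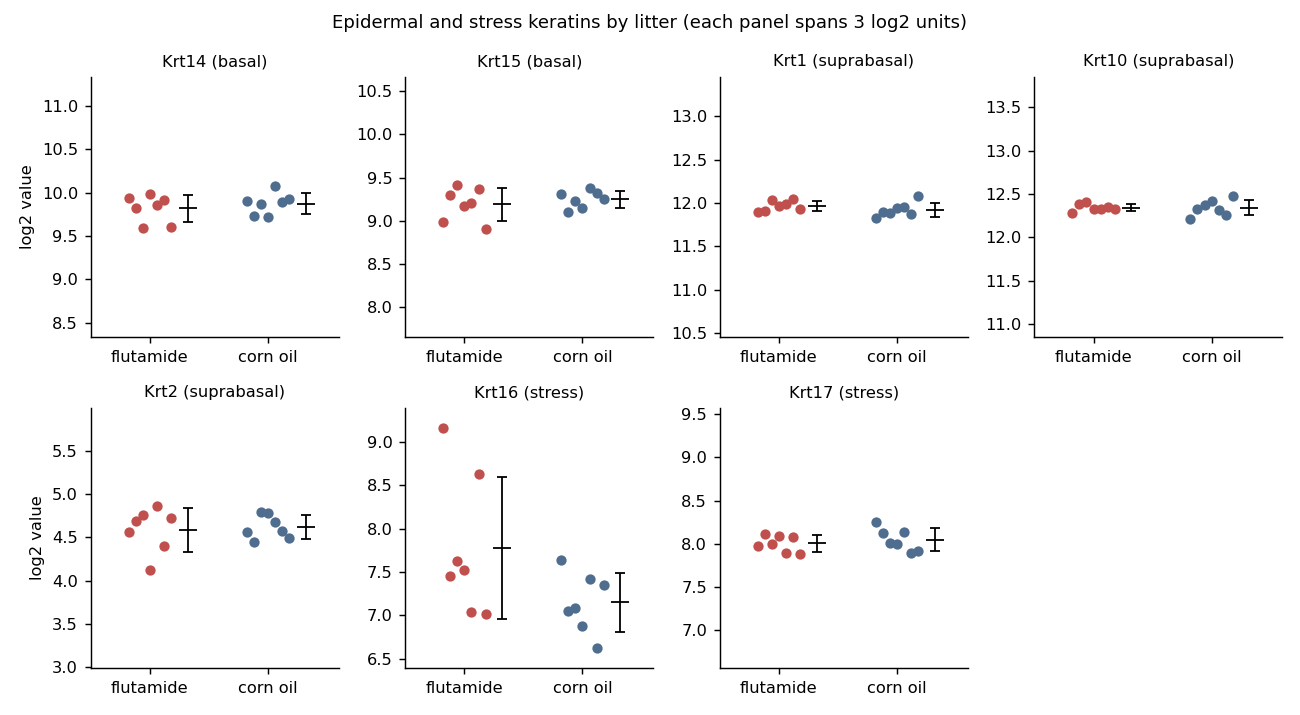
Log2 value of each of the 7 keratins in every litter, flutamide (red, left) and corn oil (blue, right); dots are litters in replicate order, and the bar beside them is the mean ± SD of 7 litters. All panels span 3 log2 units, so that the wide spread of Krt16, from 7.01 to 9.17 in flutamide litters, can be set against the narrow bands of Krt1 and Krt10.

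The basal keratins were similar in both groups. Krt14, the type I partner of Krt5 in dividing cells, had log2 values from 9.60 to 9.99 in flutamide litters (median 9.86) and from 9.72 to 10.1 in corn oil litters (median 9.89). The ranges overlapped, although 2 of 7 flutamide litters, replicates 3 and 7, lay below every corn oil litter. Mean log2 values were 9.82 ± 0.16 in flutamide and 9.87 ± 0.12 in corn oil litters (SD, n = 7 each). The log2 difference of -0.06 (SE 0.07, 95% confidence interval from -0.21 to 0.10) had a limma adjusted p of 0.863. It was -0.02 without flutamide replicate 7, without flutamide replicate 3 or without corn oil replicate 5, and -0.01 without both corn oil replicate 1 and flutamide replicate 7.

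Krt15, the keratin of basal and follicle bulge cells, ran from 8.90 to 9.42 in flutamide litters (median 9.20) and from 9.10 to 9.38 in corn oil litters (median 9.25). The flutamide litters were spread more widely, with 2 of them below and 1 above all corn oil litters. Its log2 difference was -0.06 (SE 0.08, interval from -0.22 to 0.11; limma adjusted p = 0.867). Leaving out flutamide replicate 7, the lowest litter for this gene, moved that difference to -0.01, and leaving out flutamide replicate 1 moved it to -0.02.

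The suprabasal pair was the steadiest of the set. Krt1, the type II keratin of differentiating cells, had log2 values from 11.90 to 12.04 in flutamide litters (median 11.96) and from 11.83 to 12.08 in corn oil litters (median 11.89). All 7 flutamide litters lay above the corn oil median, yet all lay inside the corn oil range. The log2 difference was 0.05 (SE 0.05, interval from -0.06 to 0.16; limma adjusted p = 0.827).

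Krt10, the type I partner of Krt1, had log2 values from 12.29 to 12.41 in flutamide litters (median 12.33) and from 12.22 to 12.48 in corn oil litters (median 12.33). Every flutamide litter again lay inside the corn oil range. Its log2 difference was 0.0008 (SE 0.05, interval from -0.11 to 0.11; limma adjusted p = 0.999), and the sign of a value so near 0 turned under several alternatives.

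Spread between litters was low for both genes. The pooled within-group SD was 0.069 for Krt1 and 0.070 for Krt10, against a median of 0.138 over all genes. Only 2.79% of genes had a smaller SD than Krt1 and 3.15% a smaller SD than Krt10. Probe sets of similar brightness were also steady. Among the 21 genes whose mean lay within 0.5 of that of Krt1 the median SD was 0.085, and among the 10 within 0.5 of Krt10 it was 0.070.

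Krt2, the late type II keratin of the upper epidermis, was the 1 member with a mean log2 value under 5. Its log2 values ran from 4.12 to 4.86 in flutamide litters (median 4.69) and from 4.45 to 4.79 in corn oil litters (median 4.57). Flutamide replicates 4 and 6 lay below all corn oil litters and replicate 5 above them. The log2 difference was -0.03 (SE 0.10, interval from -0.23 to 0.17; limma adjusted p = 0.954). Without flutamide replicate 4 it was 0.05. Whether Krt2 was expressed above background was not called here.

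Of the stress keratins, Krt16 varied widely between litters and Krt17 little, and the difference between their responses was not tested. Krt16, the type I keratin of activated keratinocytes, had log2 values of 9.17 and 8.63 in flutamide replicates 1 and 6, while the other flutamide litters ran from 7.01 to 7.63. In corn oil litters it ran from 6.62 to 7.64, with a median of 7.08 against 7.52 in flutamide litters. Thus 2 of 7 flutamide litters lay above every corn oil litter, 5 of 7 lay above the corn oil median, and 5 of 7 lay inside the corn oil range.

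Mean log2 values of Krt16 were 7.78 ± 0.81 in flutamide and 7.15 ± 0.35 in corn oil litters (SD, n = 7 each). The log2 difference was 0.63 (SE 0.27), a 1.55-fold level with a 95% confidence interval from 1.04-fold to 2.29-fold. It did not pass over all genes (limma p of 0.0319, adjusted p = 0.506), and Krt16 ranked number 914 of all genes by p-value. The difference was 0.40 without flutamide replicate 1 (limma adjusted p = 0.538) and 0.49 without flutamide replicate 6 (0.643). It was 0.76 without flutamide replicate 7 (0.533) and 0.84 without both corn oil replicate 1 and flutamide replicate 7 (0.608). With litters dropped singly, the unadjusted limma p of Krt16 ran from 0.0121 to 0.0813. That p was 0.0807 with limma's trend and robust settings (SE 0.33) and 0.0182 with the replicate number as a block. An interval clear of 1-fold thus did not hold under every alternative.

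The spread of Krt16 set it apart from the other members. Its pooled SD of 0.63 ranked number 13 among the 14497 genes, and 99.85% of the 1939 genes within 0.5 of its mean had a smaller SD. Between the lowest and highest litter it covered 4.44-fold in flutamide and 2.02-fold in corn oil litters. The largest such range among the other 6 keratins was 1.67-fold, for Krt2 in flutamide litters.

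Krt17, the other stress keratin of the set and the gene next to Krt16 in the RefSeq GRCr8 gene order, had log2 values from 7.88 to 8.12 in flutamide litters (median 8.0) and from 7.89 to 8.26 in corn oil litters (median 8.01). Flutamide replicates 1 and 6, the litters highest for Krt16, were at 7.97 and 8.08 for Krt17 and lay inside the corn oil range. The log2 difference was -0.04 (SE 0.06, interval from -0.18 to 0.09; limma adjusted p = 0.891), and -0.01 without corn oil replicate 1. Krt14, Krt16 and Krt17 are close relatives in sequence, and these array values cannot show how far their probe sets share signal.

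The genes around Krt16 on rat chromosome 10 gave the following log2 differences. In the order Krt13, Krt15, Krt19, Krt9, Krt14, Krt16, Krt17 and Krt42 they were 0.51, -0.06, -0.03, 0.16, -0.06, 0.63, -0.04 and -0.04. Ka11, which lies between Krt14 and Krt16 in the gene order, is not among the genes given. The values above 0.1 belonged to Krt13, Krt9 and Krt16, which are not neighbours of each other in this order. None of the 8 passed, with limma adjusted p from 0.443 to 0.942.

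In the litter with the highest Krt16, 3 genes of inflamed epithelium, picked after their values were seen, were also high. In flutamide replicate 1, Il36a, an interleukin of stressed epidermis, stood at 7.06 against 4.93 to 5.90 in the other 13 samples. S100a9, a subunit of the antimicrobial protein calprotectin, stood at 6.45 against 4.47 to 5.07, and S100a8, the other subunit, at 6.29 against 4.26 to 5.84. The mean over 22 wound and stress genes was 6.51 in that litter, against 6.10 to 6.28 elsewhere, but this mean holds those 3 genes. Over the other 19 genes it was 6.50 in flutamide replicate 1 and ran from 6.25 to 6.48 in the other 13 samples. The mean over 5 neutrophil markers was 5.34 there, number 4 from the highest of the 14 samples, which ran from 5.11 to 5.39.

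In flutamide replicate 6 most of these measures were not high. Its wound and stress mean was 6.14, the lowest of the flutamide litters, and its interferon mean of 4.42 was the lowest of the 14 samples. Il36a was at 5.37 and S100a8 at 4.64 there. S100a9, at 5.07, was above every sample other than flutamide replicate 1. Some other keratins, also picked after their values were seen, were high in that litter. Krt13, the type I keratin of inner stratified epithelia, was at 8.35 there and Krt9, the keratin of palm and sole, at 8.27. Flutamide replicate 3 had 8.43 for Krt13 with 7.63 for Krt16, and corn oil replicate 1 had 8.10 for Krt9 with 7.64 for Krt16. The part of the interferon litter, of inflammation or of regional differences in epithelium in the Krt16 values was not tested.

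**Figure D2:**
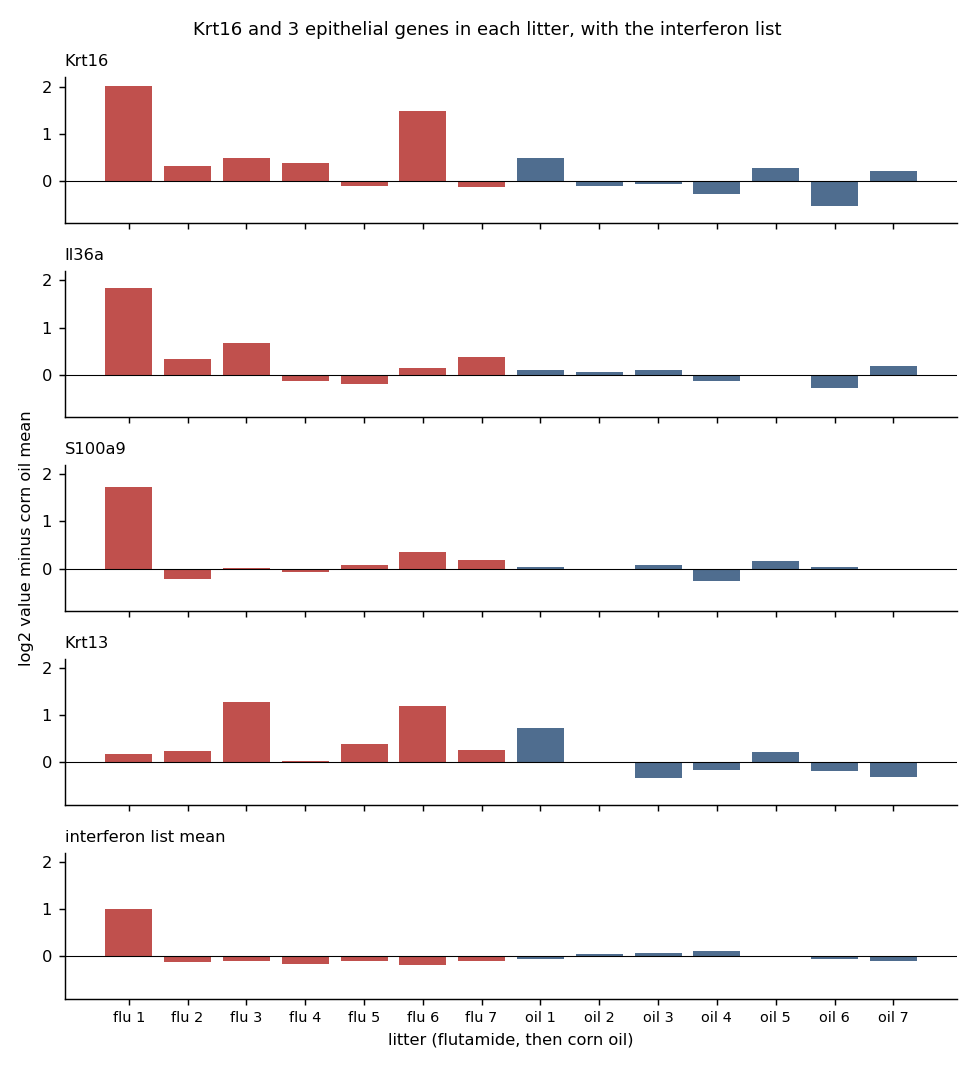
Log2 value minus the corn oil mean in each of 7 flutamide litters (red, left) and 7 corn oil litters (blue, right) for Krt16, Il36a, S100a9, Krt13 and the mean of 12 interferon-stimulated genes; all panels share 1 scale. Krt16 is highest in flutamide replicates 1 and 6, Il36a, S100a9 and the interferon mean in replicate 1, and Krt13 in replicates 3 and 6.

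The 3 keratin classes were then contrasted within each litter, as the mean log2 value of 1 class minus that of another. Levels of different probe sets are not comparable, so only the shift of a contrast between groups carries meaning. These scores were built from chosen members and were given no test. Suprabasal minus basal keratins was 0.13 ± 0.17 in flutamide and 0.07 ± 0.13 in corn oil litters (SD, n = 7 each), a shift of 0.06, which is less than the pooled SD of 0.15 between litters. Flutamide litters ran from -0.11 to 0.41 and corn oil litters from -0.08 to 0.28. The shift was 0.02 without flutamide replicate 7 and 0.04 without corn oil replicate 1, and it turned to -0.0073 without both.

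Stress minus basal keratins was -1.61 ± 0.39 in flutamide and -1.96 ± 0.21 in corn oil litters (SD, n = 7 each), a shift of 0.35 beside a pooled SD of 0.31. Stress minus suprabasal keratins was -1.74 ± 0.47 in flutamide and -2.03 ± 0.25 in corn oil litters (SD, n = 7 each), a shift of 0.29 beside a pooled SD of 0.38. Both shifts rested on Krt16. With Krt17 alone as the stress keratin, stress minus basal shifted by 0.015 and stress minus suprabasal by -0.05, and with Krt16 alone they shifted by 0.69 and 0.62. Without flutamide replicate 1 the shift of stress minus basal was 0.23 and that of stress minus suprabasal 0.17.

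**Figure D3:**
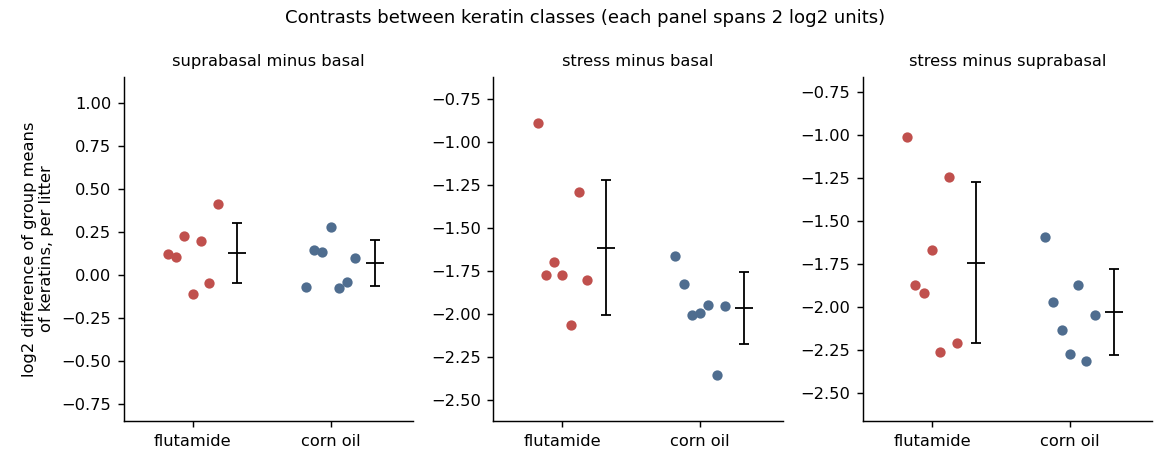
Within-litter contrasts of keratin classes on the log2 scale for flutamide (red, left) and corn oil (blue, right) litters; dots are litters and bars the mean ± SD of 7 litters, each panel spanning 2 log2 units. The groups overlap in all 3 contrasts, and flutamide replicates 1 and 6 are the highest litters in both contrasts that hold Krt16.

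Correlations between members were computed over the 14 litters after the group means were taken away, with 2-sided permutation within groups and adjustment over 21 pairs. All arrays share technical spread, which can raise such values. Krt1 and Krt10, the suprabasal partners, had the highest, with Pearson r = 0.75 (permutation p = 0.00426, adjusted 0.0895) and Spearman rho = 0.57 (permutation p = 0.0433, adjusted 0.626). Without the 2 litters farthest from the median of Krt1, r was 0.63. It was 0.51 in flutamide and 0.85 in corn oil litters alone.

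No pair passed after adjustment (Pearson or Spearman permutation test), and 1 of 21 had an unadjusted Pearson p under 0.05. With single litters left out, the r of Krt1 with Krt10 ran from 0.57 to 0.84, and it passed without corn oil replicate 5 (adjusted permutation p = 0.0489) or flutamide replicate 2 (adjusted permutation p = 0.0134).

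The basal keratins Krt14 and Krt15 had r = 0.27 over all litters (permutation p = 0.42, adjusted 0.679; rho = 0.14, permutation p = 0.656, adjusted 0.865; r = 0.39 without the 2 litters farthest from the median of Krt14). Within groups it was 0.02 in flutamide and 0.92 in corn oil litters, a difference that was not tested. The stress keratins Krt16 and Krt17 had r = 0.38 (permutation p = 0.143, adjusted 0.643; rho = 0.42, permutation p = 0.119, adjusted 0.626), and r = 0.60 without the 2 litters farthest from the median of Krt16.

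**Figure D4:**
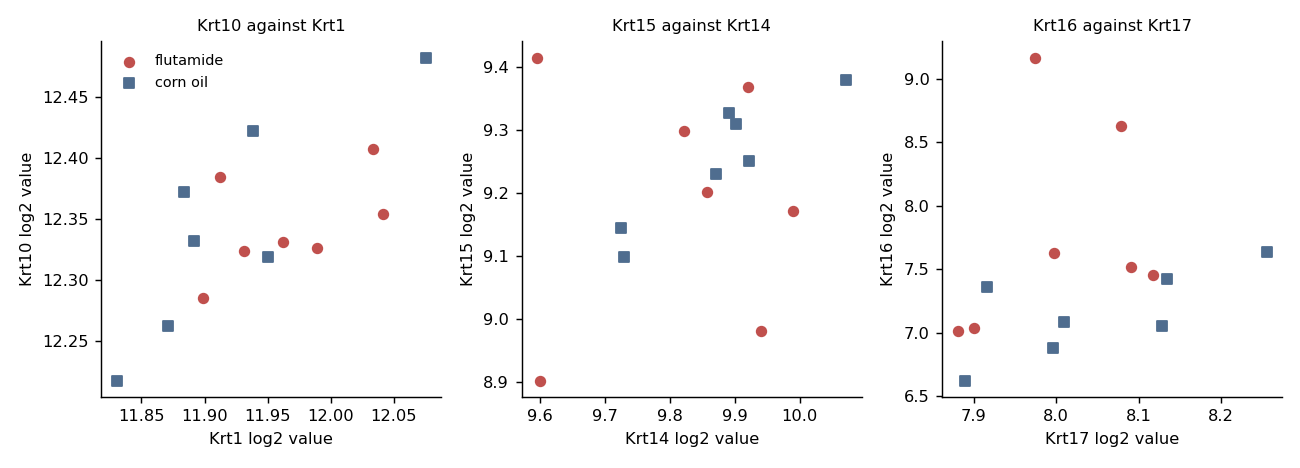
Log2 values of paired keratins in 14 litters, Krt10 against Krt1 (left), Krt15 against Krt14 (middle) and Krt16 against Krt17 (right), with flutamide litters as red circles and corn oil litters as blue squares. The points for Krt1 and Krt10 rise together, the corn oil points for Krt14 and Krt15 form a line that the flutamide points leave, and flutamide replicates 1 and 6 stand above the other points for Krt16 at ordinary Krt17 values.

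Predicted genes with LOC or RGD names were passed over in the search that follows. Genes whose pattern was most like that of each keratin were found by Pearson r over the 14 litters with group means taken away. These are descriptions without a test. Each r was picked as among the highest of all genes over only 14 litters, so the values are high partly by selection. For Krt14 they were Ly6d, an Ly6-family surface protein of stratified epithelium, with r = 0.95, Rpl36al1 with 0.91 and Mrpl27 with 0.89. For Krt15 they were Gjb5, a connexin of epidermis, with 0.88, Laptm4a with 0.87 and Lgals7, the galectin of stratified epithelium, with 0.87. Krt1 was closest to Serpinb12 with 0.86, Il36b, an interleukin of the epidermis, with 0.86 and Cx3cr1 with 0.86.

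The genes closest to Krt10 were Ube2d2 with r = 0.91, Gkn1 with 0.86 and Lin7c with 0.85. Those closest to the dim Krt2 were Wipf3 with 0.86, Pla2g15 with 0.84 and Hoga1 with 0.82. Krt16 was closest to Tspan31 with 0.87, C3h15orf48 with 0.85 and Abt1 with 0.84, and Krt17 to Cadm3 with 0.90, Golgb1 with 0.87 and Csrp2 with 0.83. None of these 21 genes passed between the groups, with limma adjusted p from 0.542 to 0.997.

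The other genes of the same epidermal layers gave no call either. Of 9 measured genes of the basal layer and its attachment to the basement membrane, 2 were above 0 and 7 below, with a median log2 difference of -0.03. The smallest p-values belonged to the laminin chain Lama3 with -0.08 (SE 0.05), the hemidesmosome integrin Itgb4 with -0.07 (SE 0.05) and the anchoring fibril collagen Col7a1 with 0.07 (SE 0.05). Krt5, the partner of Krt14, shares a probe set with Krt75 in the annotation and was not analysed here.

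Of 8 measured genes of differentiated epidermis, 3 were above 0 and 5 below, with a median of -0.03. The crosslinking enzyme Tgm3 differed by 0.12 (SE 0.06), suprabasin (Sbsn) by -0.08 (SE 0.06) and involucrin (Ivl) by -0.09 (SE 0.08). Among 9 desmosome genes, whose products anchor keratin filaments at cell junctions, 4 were above 0 and 5 below, with a median of -0.04. The smallest p-values there were those of Perp with 0.15 (SE 0.06), Pkp2 with -0.11 (SE 0.08) and Pkp1 with 0.07 (SE 0.07). Limma adjusted p over these 3 lists was 0.486 or more for the genes named.

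Genes of activated or wounded keratinocytes lay mostly above 0. Of 22 measured, 17 were above 0 and 5 below, where 52.3% of all genes were above 0, and the median log2 difference was 0.08 against 0.005 over all genes. None passed (limma adjusted p of 0.302 or more), and 4 of 22 had an unadjusted limma p under 0.05, beside 9.16% of all genes. With single litters left out the list median ran from 0.05 to 0.11. The list was chosen with earlier results of these data known, and it holds Il36a, S100a8 and S100a9. Its counts and median are therefore a description without a test, and the all-gene shares are no independent standard for them. Krt6a, the usual type II partner of Krt16 and Krt17, was not analysed here.

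Gjb2, a connexin raised in wounded and psoriatic epidermis, had log2 values from 9.03 to 9.13 in flutamide litters and from 8.76 to 9.02 in corn oil litters. The groups did not overlap, which held for 0.124% of all genes. The lowest flutamide litter, at 9.028, was close to the highest corn oil litter, at 9.022. The difference of Gjb2 was 0.18 (SE 0.05, limma adjusted p = 0.317). Tgfa, a growth factor that keratinocytes secrete, had values from 6.44 to 6.68 in flutamide litters and from 6.13 to 6.45 in corn oil litters. Its difference was 0.28 (SE 0.06; limma adjusted p = 0.302). Slpi, an epithelial protease inhibitor, differed by 0.25 (SE 0.08; limma adjusted p = 0.363). Unlike Krt16, Tgfa and Slpi were not at their highest in flutamide replicate 1. Gjb2 was at 9.121 there, close to its highest value of 9.126 in flutamide replicate 3.

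The transcription factors known to act on epidermal keratins or differentiation numbered 24, of which 8 were above 0 and 16 below, with a median log2 difference of -0.03. None passed. Beside 9.16% of all genes, 1 of 24 had an unadjusted limma p under 0.05. That was Vdr, the vitamin D receptor, with -0.19 (SE 0.06; limma adjusted p = 0.363). Klf4, a factor of barrier formation, differed by 0.12 (SE 0.06; 0.550), and Ahr, the aryl hydrocarbon receptor, by -0.13 (SE 0.06; 0.562).

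Other keratin families, each made by other epithelial cells, were set beside the 7 members. The mucosal keratins Krt13, Krt4 and Krt24 had log2 differences of 0.51 (SE 0.20), 0.28 (SE 0.16) and 0.02 (SE 0.07). Their median of 0.28 was 0.17 without flutamide replicate 3 and 0.36 without corn oil replicate 1. Krt13 ran from 7.18 to 8.43 in flutamide litters and from 6.83 to 7.89 in corn oil litters, with a limma adjusted p of 0.443. Keratins of the inner root sheath lay below 0 in 6 of 6 measured genes, with a median of -0.18, led by Krt73 with -0.30 (SE 0.07), Krt72 with -0.24 (SE 0.08) and Krt26 with -0.25 (SE 0.09). Their limma adjusted p-values were 0.302, 0.368 and 0.368.

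Hair shaft keratins were divided, with 7 of 14 above 0 and a median log2 difference of 0.01. Krt83 differed by 0.26 (SE 0.10), Krt35 by 0.11 (SE 0.09) and Krt82 by 0.08 (SE 0.07). Simple epithelial keratins had 2 of 5 above 0 and a median of -0.03, with Krt8 at -0.20 (SE 0.07), Krt20 at 0.14 (SE 0.09) and Krt18 at 0.10 (SE 0.07). Of 5 minor epidermal keratins 2 were above 0, with a median of -0.07, and Krt76, Krt77 and Krt9 at -0.12 (SE 0.09), -0.10 (SE 0.10) and 0.16 (SE 0.23). No keratin of any family passed over all genes tested (limma adjusted p of 0.302 or more).

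**Figure D5:**
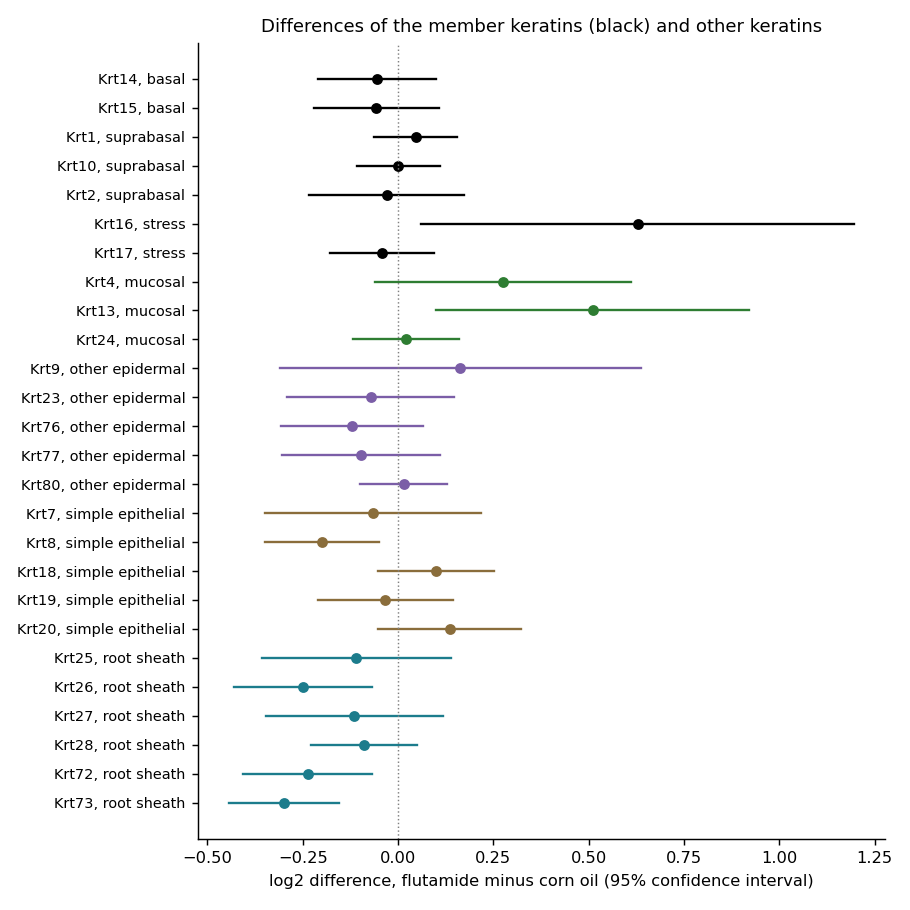
Log2 difference, flutamide minus corn oil, with its 95% confidence interval from limma for the 7 member keratins (black) and for mucosal (green), other epidermal (purple), simple epithelial (brown) and root sheath (teal) keratins. Krt16 at 0.63 and Krt13 at 0.51 lie farthest right with wide intervals, the other 6 members lie within 0.06 of 0, and all 6 root sheath keratins lie below 0.

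Markers of other cell types were counted in the same way, and none passed (limma adjusted p of 0.302 or more). Hair follicle genes other than keratins, a source of Krt14, Krt15, Krt16 and Krt17 as well, had list means from 6.34 to 6.47 in flutamide litters and from 6.33 to 6.58 in corn oil litters, with 5 of 8 below 0 and a median log2 difference of -0.14. Fibroblast markers ran from 9.21 to 9.41 in flutamide and from 9.22 to 9.35 in corn oil litters, with 2 of 6 below 0 and a median of 0.01. Smooth muscle markers ran from 6.94 to 7.26 in flutamide and from 7.08 to 7.43 in corn oil litters, with 6 of 6 below 0 and a median of -0.19.

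Skeletal muscle markers were below 0 in 6 of 6 (median -0.18), with list means from 6.03 to 6.78 in flutamide and from 6.15 to 6.85 in corn oil litters. Endothelial markers were below 0 in 5 of 5 (median -0.09; 7.08 to 7.34 in flutamide, 7.13 to 7.55 in corn oil litters) and macrophage markers in 5 of 6 (median -0.07; 6.01 to 6.24 in flutamide, 6.09 to 6.49 in corn oil litters). The macrophage median was -0.0044 without corn oil replicate 1, the highest litter for that list, and 0.014 without both corn oil replicate 1 and flutamide replicate 7. Neutrophil markers were above 0 in 4 of 5 (median 0.08; 5.24 to 5.39 in flutamide, 5.11 to 5.35 in corn oil litters) and sebaceous markers in 2 of 6 (median -0.06; 5.46 to 5.69 in flutamide, 5.45 to 5.69 in corn oil litters). Interferon-stimulated genes were above 0 in 7 of 12 with a median of 0.04, which turned to -0.07 without flutamide replicate 1 and to -0.0056 without corn oil replicate 1. The part of cell composition in the keratin values was not tested.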

How the data were processed

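RNA from rat foreskin was measured in 14 samples, 1 per litter (7 flutamide, 7 corn oil). Per the labels' protocols, amplification (Nugen Applause) started from 50 ng of RNA. The authors deposited log2 values for 28826 probe sets, made with RMA per the submitters' processing notes. RMA subtracts a modelled background, equalises the arrays' distributions and combines probes, which compresses differences of dim probe sets. For its version and genome build, not given in the sources used here, no assumption was made. Values between 0.669 and 13.8 set the scale as log2. The number of arrays limits the precision. No scanner files, slides or scan dates were used, so no detection call, background alternative or slide block could be made.

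Probe sets with exactly 1 symbol (15209) were named from GEO's platform annotation, with symbols updated by gene number through RefSeq's GRCr8 table (14471 of 14497 genes matched). Probe sets with several symbols (306) or none (13311) were left out, and the brightest probe set stood for a gene with several. Flutamide was compared with corn oil by limma 3.58.1 in R 4.3.3, 2-sided, adjusted over all 14497 genes at a threshold of 0.05. The fit was checked on data simulated from the residuals. Correlations used Python 3.11.15 with 100000 permutations.

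The members and gene lists were chosen with earlier results of these data known. The text names the 7 members, the 3 genes of each epithelial list with the smallest p, and genes past the threshold. It also names the 3 genes most like each member, with LOC and RGD names passed over. Il36a, S100a8, S100a9, Krt19 and Krt42, and the interferon list, were chosen after values were seen. Cell type lists are given by count. Alternatives were other summaries, scalings, filters, variance models, sample weights, array SD as covariate, litters left out and the replicate number as a block. Deviations from the group means correlated between -0.07 and 0.15 in samples with the same number, and exceeded 0.1 in 1 of 7 pairs, so the numbers were not taken as pairs. The samples are separate litters per the labels.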

Additional observations from a re-analysis of the deposited data

Results flagged for a closer look

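None of the 7 keratins, in either group, had a litter separated from the others by a gap above Dixon's 95% critical value for 7 samples. That gap is measured to the next litter, so 2 litters that are high together can escape it. Krt16 had such litters, flutamide replicates 1 and 6 at 9.17 and 8.63. Of 174 groups of 7 litters checked over all named genes, list means and contrasts, 18 had such a litter. Chance flags about 1 in 20 groups, but the count cannot be read against that rate, since Il36a, S100a8, S100a9 and the interferon list were picked after their values were seen and list means share genes with single genes.

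Flutamide replicate 1, the litter with the highest Krt16, was the highest of its group for Il36a (7.06), S100a8 (6.29), S100a9 (6.45), the wound and stress list mean (6.51) and the interferon list mean (5.60). Corn oil replicate 1 was the highest of its group for Krt9 (8.10), Krt4 (5.96), S100a8 (5.84), C3h15orf48 (6.41) and the list means of mucosal keratins (6.40), endothelium (7.55) and macrophages (6.49). Flutamide replicate 6, the litter with the next highest Krt16, was the highest for Krt9 (8.27).

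Corn oil replicate 2 was the lowest of its group for Gjb5 (7.44), the differentiated epidermis list mean (8.75) and the desmosome list mean (7.81). Flutamide replicate 4 was the lowest for Slpi (8.63), and flutamide replicate 7 for Csrp2 (6.11).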

How the results depend on the processing

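None of the 7 keratins passed over all genes under any of the alternatives run, and Krt14, Krt1 and Krt16 also kept their direction in all of them. Krt16 had limma adjusted p from 0.388 to 0.659, and with the replicate number as a block its difference was 0.63 (adjusted p = 0.388). The block changed no keratin's call. The count of genes past the threshold was 1, and became 2 with limma's trend and robust settings, 0 with the replicate block, 0 with the array SD as covariate, 0 without both corn oil replicate 1 and flutamide replicate 7, and between 0 and 1 when litters were dropped singly. The difference of Krt10 turned to -0.011 with each sample centred on its median, to -0.0086 with quantile normalization, to -0.0081 with array weights and to -0.017 without both corn oil 1 and flutamide 7, which also turned Krt15 to 0.0011 and Krt17 to 0.014. With litters dropped singly, Krt10 ran from -0.0203 to 0.0239, Krt2 from -0.0759 to 0.0480, Krt15 from -0.09 to -0.01, Krt17 from -0.07 to -0.01 and Krt16 from 0.40 to 0.76. The shift of stress minus basal keratins was 0.015 without Krt16 and 0.69 without Krt17. The number of member pairs passing was between 0 and 1 when litters were dropped singly, and the r of Krt1 with Krt10 from 0.57 to 0.84. Several gene lists with medians near 0 turned sign. With litters dropped singly, differentiated epidermis ran from -0.05 to 0.002, simple keratins from -0.07 to 0.02 and hair shaft keratins from -0.02 to 0.05. Fibroblasts ran from -0.01 to 0.03 and interferon genes from -0.07 to 0.10. Without both corn oil 1 and flutamide 7 the desmosome list was 0.0048 and minor epidermal keratins 0.0062. The other lists kept their sign with litters dropped singly. Among them, mucosal keratins ran from 0.17 to 0.36, root sheath keratins from -0.22 to -0.14 and hair follicle genes from -0.16 to -0.11. Smooth muscle markers ran from -0.23 to -0.16 and skeletal muscle markers from -0.25 to -0.11. Krt2, with a mean under 5, left the table when dim genes were removed, and each member has 1 probe set, so averaging probe sets left the member differences as they were. Alternatives for list medians and member pairs were chosen after the data were seen. Where a value turned or a count moved, the cause was not tested. Array values near background limit what can be said of Krt2.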
